A study of Saccharum hybrid cultivar with 12 samples.

Results

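The sugarcane stalk expresses invertases of the cell wall and of the cytosol, and 3 sequences annotated as such are described here from RNA-seq of 12 libraries. They are the assembled sequences (unigenes) that the study's text names as cell wall or cytosolic invertases: c102611_g1 and c102611_g2, both annotated CWINV3 (cell wall invertase 3), and c93030_g1, annotated CINV2 (cytosolic invertase 2). The members were taken by these names from a table of 163054 unigenes. Unigene sequences were not used here, so the annotations were not checked against sequence.

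The plants came from 3 genotypes of Saccharum hybrid, a polyploid crop in which 1 assembled unigene can merge several gene copies. HS is ROC22, a commercial variety rich in sugar (15.0% sucrose on the label); MS is YT71-210, of moderate sugar (12.6%); and LS is GT86-887, of low sugar (6.0%). Each genotype is a single clone grown from stem cuttings, so a difference between genotypes is one between clones. Groups marked T were sprayed on the leaves with ethylene solution at 400 mg/L, made from ethephon, a compound that releases ethylene in the plant and is used to ripen cane; groups marked CK were sprayed with water. Plants were 8 months old, and developing stalk was sampled 7 days after the spray at a point 20 cm above a leaf node. The 6 groups (HS_T, HS_CK, MS_T, MS_CK, LS_T and LS_CK) had 2 biological replicates each. The tissue label was not checked against cell type markers, because the sources used here pair no unigene with one. In such bulk tissue, fewer cells of a type and less RNA per cell cannot be told apart.

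Invertases split sucrose irreversibly into glucose and fructose. Cell wall invertases are secreted and act on sucrose that has left the phloem into the apoplast, the space outside the cell membrane, where the split keeps sucrose flowing towards the tissue that uses or stores it. Cytosolic invertases act on sucrose inside the cell, including sucrose that arrives through plasmodesmata, the channels that join plant cells. In Arabidopsis thaliana the name CINV2 belongs to a neutral invertase, whereas the study's text calls c93030_g1 an acid one. The Arabidopsis protein cwINV3 is known to cut fructans, polymers of fructose, in place of sucrose, so the annotation CWINV3 does not settle the substrate of the sugarcane protein.

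Library totals ran from 19765600 to 28747100 expected counts, which are read numbers that can be fractional because reads shared by several transcripts are divided. Replicates differed by more than sampling noise in every group (chi-square per degree of freedom 5.65 to 21.4), so no library had been deposited under both names of a group. Libraries of different groups were not compared in this way. All 3 invertase unigenes passed the filter on low counts, which left 54433 unigenes to test. c93030_g1 had 12492 counts over the 12 libraries and 719 to 1313 in each, c102611_g1 had 6231 counts in all and 288 to 957 in each, and c102611_g2 had 1004 counts in all and 27 to 156 in each. The value for c102611_g2 is thus the least precise. Its biological coefficient of variation, the relative spread between replicates beyond counting error, was 0.244, against 0.136 for c102611_g1, 0.142 for c93030_g1 and a median of 0.184 over all tested unigenes.

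Levels are given in FPKM (fragments scaled by the length of the unigene and by the number of mapped fragments). The counts, totals and FPKM together imply lengths near 2304 bases for c93030_g1, 1659 bases for c102611_g1 and 425.5 bases for c102611_g2 (medians over libraries). All 3 unigenes were in the upper part of the distribution of FPKM in every library, at the 86 to 91.8 percentile for c93030_g1, 79.5 to 89.5 for c102611_g1 and 65.3 to 86.6 for c102611_g2 among unigenes with a count. The cytosolic invertase varied least, with its highest FPKM 1.81 times its lowest, against 2.67 times for c102611_g1 and 5.64 times for c102611_g2.

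For the longer cell wall invertase unigene, c102611_g1, replicates 1 and 2 had FPKM of 14.19 and 14.81 in HS_T and 16.25 and 12.51 in HS_CK. In the MS clone it had 15.19 and 20.28 in MS_T and 15.02 and 13.06 in MS_CK. In the LS clone it had 13.55 and 15.04 in LS_T and 8.48 and 7.59 in LS_CK. The LS_CK pair stood below the other 10 libraries, which overlapped each other over much of their range. Mean FPKM (± SD, n = 2 each) was 14.5 ± 0.438 in HS_T and 14.4 ± 2.64 in HS_CK, 17.7 ± 3.6 in MS_T and 14 ± 1.39 in MS_CK, and 14.3 ± 1.05 in LS_T and 8.04 ± 0.629 in LS_CK. From the highest down, the order was MS_T, HS_T, HS_CK, LS_T, MS_CK and LS_CK. Of the neighbours in this order, MS_T and HS_T did not overlap in their libraries, nor did MS_CK and LS_CK, while HS_T and HS_CK, HS_CK and LS_T, and LS_T and MS_CK overlapped.

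For the shorter cell wall invertase unigene, c102611_g2, FPKM was 12.32 and 9.82 in HS_T and 15.58 and 9.27 in HS_CK. It was 10.85 and 8.57 in MS_T and 6.9 and 8.56 in MS_CK. In the LS clone it was 5.91 and 9.91 in LS_T and 4.53 and 2.76 in LS_CK. The LS_CK pair was again the lowest, and replicate 1 of HS_CK was the highest of the 12. Mean FPKM was 11.1 ± 1.77 in HS_T and 12.4 ± 4.46 in HS_CK, 9.71 ± 1.61 in MS_T and 7.73 ± 1.17 in MS_CK, and 7.91 ± 2.83 in LS_T and 3.64 ± 1.25 in LS_CK (SD, n = 2 each). The order from the highest down was HS_CK, HS_T, MS_T, LS_T, MS_CK and LS_CK, in which MS_CK and LS_CK were the single pair of neighbours whose libraries did not overlap.

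For the cytosolic invertase c93030_g1, FPKM was 22.68 and 21.12 in HS_T and 24.09 and 17.86 in HS_CK. It was 18.78 and 18.52 in MS_T and 15.16 and 17.05 in MS_CK. In the LS clone it was 21.72 and 27.49 in LS_T and 18.75 and 18.73 in LS_CK. Here LS_CK was not the lowest group: mean FPKM was 21.9 ± 1.1 in HS_T and 21 ± 4.41 in HS_CK, 18.6 ± 0.184 in MS_T and 16.1 ± 1.34 in MS_CK, and 24.6 ± 4.08 in LS_T and 18.7 ± 0.0141 in LS_CK (SD, n = 2 each). The order from the highest down was LS_T, HS_T, HS_CK, LS_CK, MS_T and MS_CK. MS_T and MS_CK were the single pair of neighbours in that order that did not overlap. With 2 libraries a group, an exact permutation test of 1 unigene cannot go below p = 0.333, so all tests below come from a model fitted across all unigenes.

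**Figure D1:**
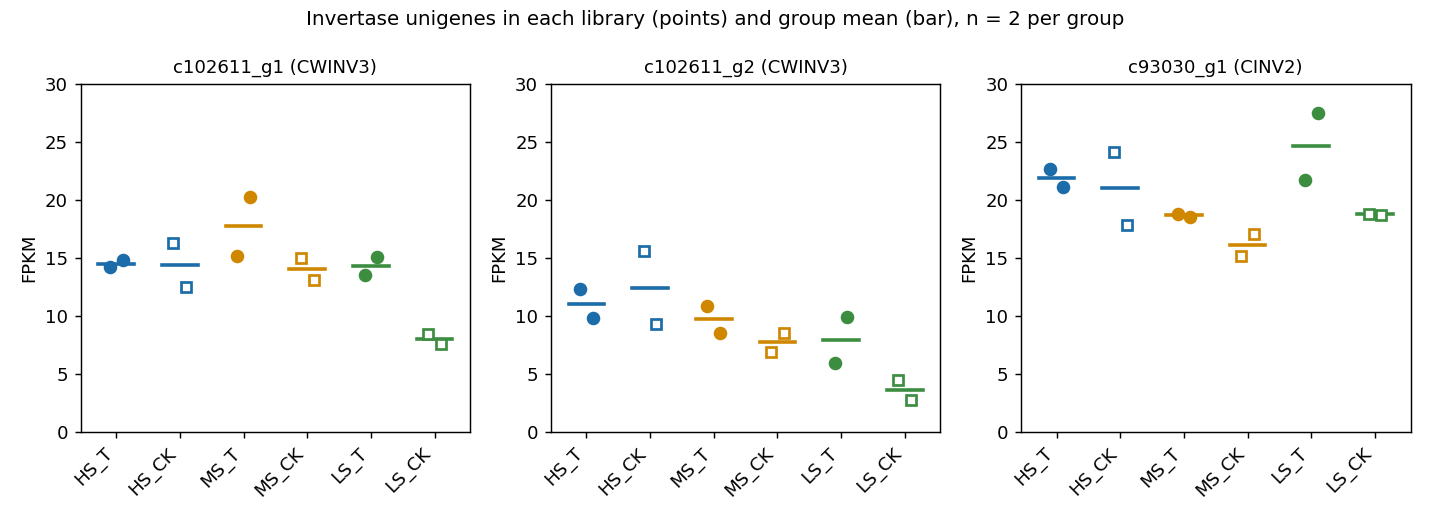
FPKM of the 3 invertase unigenes (vertical axis) in the 6 groups (horizontal axis); points are libraries, filled after ethephon and open after water, and bars are group means of 2 libraries. Both CWINV3 unigenes were lowest in the LS_CK libraries (8.48 and 7.59 for c102611_g1, 4.53 and 2.76 for c102611_g2), while c93030_g1 was not.

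The first question was whether ethephon moved the invertases within a clone. A unigene was called when edgeR's quasi-likelihood test gave a Benjamini-Hochberg adjusted p under 0.005 and a fold change over 2, the limits of the study's methods; an adjusted p under 0.05 with no fold limit served as a looser threshold. Log2 fold changes are given with their standard error (SE).

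In the LS clone all 3 invertase unigenes had a higher FPKM in both LS_T libraries than in both LS_CK libraries, as 18.9% of all tested unigenes had. By the limits 0 of the 3 were called, where 2.53% of all tested unigenes were called in either direction. c102611_g1 was 1.9-fold higher in LS_T (log2 fold change 0.92, SE 0.17, 95% interval 0.56 to 1.29, edgeR adjusted p = 0.00411), so it met the p limit and missed the fold limit. It passed the looser threshold, as 6.35% of tested unigenes did in the upward direction. For c102611_g2 the ratio was 2.31 (log2 1.21, SE 0.36, interval 0.42 to 2, edgeR adjusted p = 0.0534), which met the fold limit and missed the p limit. For c93030_g1 it was 1.38 (log2 0.47, SE 0.17, interval 0.1 to 0.84, edgeR adjusted p = 0.109). The median over all tested unigenes was -0.08 on the log2 scale. Before adjustment 3 of the 3 had p under 0.05 in edgeR, as did 24.4% of all tested unigenes; DESeq2's Wald test and limma on log2(FPKM + 1) called 0.

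The outcome in LS depended on which unigenes entered the fit and on single libraries. When every unigene with at least 1 count entered, c102611_g1 had a log2 fold change of 1.01 (edgeR adjusted p = 5.03e-06) and c102611_g2 one of 1.3 (edgeR adjusted p = 0.000673), so that 2 of the 3 invertases were called, in a fit that called 3783 unigenes against 1379. Without LS_CK replicate 2, the library with the lowest CWINV3 values, the log2 value of c102611_g1 moved from 0.92 to 0.86. That fit had a single LS_CK library and called fewer of all unigenes, and in it c102611_g1 no longer passed even the looser threshold. Without LS_T replicate 1, c102611_g2 (log2 1.59, edgeR adjusted p = 0.0239) and c93030_g1 (log2 0.67, adjusted p = 0.0383) passed it. Without LS_T replicate 2 these values were 0.74 (adjusted p = 0.388) and 0.25 (adjusted p = 0.577). With the scaling of DESeq2 in edgeR, c102611_g2 also passed the looser threshold (log2 1.25, edgeR adjusted p = 0.0484).

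In the HS clone the ethephon and water libraries overlapped for all 3 unigenes. The log2 fold change in HS_T was 0.03 for c102611_g1 (SE 0.17, interval -0.33 to 0.38), -0.14 for c102611_g2 (SE 0.33, interval -0.86 to 0.58) and 0.08 for c93030_g1 (SE 0.17, interval -0.29 to 0.45), each with an edgeR adjusted p of 1. All 3 intervals lie within a 2-fold change in either direction. By edgeR 0 of 3 were called, where 0.00919% of all unigenes were; 0 had an unadjusted p under 0.05, and DESeq2 and limma called 0.

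In FPKM, all 3 unigenes were higher in both MS_T libraries than in both MS_CK libraries. The gap was smallest for c102611_g2, at 8.57 in MS_T replicate 2 against 8.56 in MS_CK replicate 2. The share of all tested unigenes separated in this way was not counted for MS. With counts scaled as in the edgeR fit, by library total and TMM factor, only c102611_g1 stayed separated in MS. On that scale c102611_g2 had 3.376 in MS_T replicate 2 against 3.802 in MS_CK replicate 2. For c93030_g1 the same libraries had 39.61 against 41.48. The separation of c102611_g2 and c93030_g1 in MS thus depended on the scaling, whereas in LS all 3 unigenes were separated on either scale. In the MS clone the log2 fold change in MS_T was 0.24 for c102611_g1 (SE 0.16, interval -0.11 to 0.6, edgeR adjusted p = 0.617), 0.26 for c102611_g2 (SE 0.34, interval -0.48 to 0.99, adjusted p = 0.84) and 0.13 for c93030_g1 (SE 0.17, interval -0.24 to 0.5, adjusted p = 0.842). Again 0 of 3 were called by edgeR, where 0.0643% of all unigenes were; 0 had an unadjusted p under 0.05, and DESeq2 and limma called 0.

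Averaged over the 3 clones, with 6 libraries on each side, the log2 fold change after ethephon was 0.4 for c102611_g1 (SE 0.1, interval 0.19 to 0.61, edgeR adjusted p = 0.0257), 0.44 for c102611_g2 (SE 0.2, adjusted p = 0.249) and 0.23 for c93030_g1 (SE 0.1, adjusted p = 0.23). None met the limits (0 of 3 in edgeR, DESeq2 and limma; 1.08% of all unigenes in edgeR), though 3 of 3 had an unadjusted p under 0.05, as did 18.9% of all unigenes. c102611_g1 passed the looser threshold, as 4.06% of tested unigenes did upwards. Its adjusted p lay between 0.0175 and 0.0975 when 1 library was left out, under 0.05 without HS_CK replicate 1 (0.0196), MS_T replicate 1 (0.0175) or LS_T replicate 1 (0.0208) and over 0.05 without each of the other 9.

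Whether the effect of ethephon differed between clones was tested as a difference of differences in the same model. The effect on c102611_g1 was larger in LS than in HS by 0.9 on the log2 scale (SE 0.24, interval 0.39 to 1.4, unadjusted p = 0.00215, edgeR adjusted p = 0.101), and larger in LS than in MS by 0.68 (SE 0.24, interval 0.17 to 1.19, unadjusted p = 0.0125, edgeR adjusted p = 0.203). For c102611_g2 the LS effect exceeded the HS effect by 1.35 (SE 0.49, interval 0.29 to 2.41, edgeR adjusted p = 0.279) and the MS effect by 0.95 (SE 0.5, interval -0.12 to 2.03, edgeR adjusted p = 0.435). For c93030_g1 the same differences were 0.38 (SE 0.24, edgeR adjusted p = 0.612) and 0.34 (SE 0.24, edgeR adjusted p = 0.596). In edgeR, with the filter on low counts, no member passed either threshold. DESeq2's Wald test put c102611_g1 past the looser threshold for LS minus HS (log2 0.95, adjusted p = 0.0251), and so did edgeR when every unigene with at least 1 count entered (log2 0.99, adjusted p = 0.0143), as for c102611_g2 (log2 1.44, adjusted p = 0.0277). For LS minus MS neither fit did so. A difference of the LS response from the HS response thus rested on the tool and on the filter. Of the 3 members, 2 had an unadjusted p under 0.05 for LS minus HS, 1 for LS minus MS and 0 for HS minus MS, where 11.5%, 13.6% and 5.56% of all unigenes had; by the limits edgeR, DESeq2 and limma called 0 in each, and edgeR called 0.129%, 0.309% and 0% of all unigenes in those contrasts. For HS minus MS, where edgeR called none of the 54433 unigenes, 3028 had an unadjusted p under 0.05 and DESeq2 called 30.

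The second question was how the clones differed under water. Of the comparisons between clones, only HS_CK vs LS_CK had members called, and there edgeR called 2 of 3 members higher in HS_CK, against 6.82% of all tested unigenes. c102611_g1 was 2.06-fold higher in HS_CK (log2 1.05, SE 0.17, interval 0.68 to 1.41, edgeR adjusted p = 0.000404) and c102611_g2 was 3.83-fold higher (log2 1.94, SE 0.36, interval 1.16 to 2.71, edgeR adjusted p = 0.00112). In both, the FPKM of each HS_CK library exceeded that of each LS_CK library, as in 24% of all tested unigenes. c93030_g1 overlapped between the groups and was not called (log2 0.34, SE 0.17, interval -0.03 to 0.71, edgeR adjusted p = 0.139). With so many unigenes called between clones, 16.8% in either direction, 2 calls among 3 are a description of these members.

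The calls were lost when HS_CK replicate 1 or LS_CK replicate 2 was left out. Calls over all unigenes also fell in those fits, which left 1 library in a group. Without HS_CK replicate 1, the library highest in c102611_g2, c102611_g1 had a log2 fold change of 0.89 (edgeR adjusted p = 0.00501) and c102611_g2 one of 1.56 (edgeR adjusted p = 0.013), and 0 of 3 were called. Without LS_CK replicate 2 the values were 0.98 (edgeR adjusted p = 0.00894) and 1.63 (edgeR adjusted p = 0.0202), and again 0 of 3 were called. The sign was the same in each, and both members stayed under an adjusted p of 0.05. DESeq2 called 2 of 3, and limma on log2(FPKM + 1) 1 of 3.

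Between MS_CK and LS_CK the FPKM of both CWINV3 unigenes was again higher in each MS_CK library than in each LS_CK library, as in 25.7% of all tested unigenes. This comparison shares its LS_CK libraries with HS_CK vs LS_CK and LS_T vs LS_CK, so these comparisons are not independent of each other. c102611_g1 was 1.92-fold higher in MS_CK (log2 0.94, SE 0.17, interval 0.58 to 1.3, edgeR adjusted p = 0.00093) and c102611_g2 2.32-fold higher (log2 1.21, SE 0.37, interval 0.43 to 2, edgeR adjusted p = 0.0217). Each missed 1 of the limits, so 0 of 3 were called, where 14.9% of all unigenes were; both passed the looser threshold, which 13.4% of unigenes passed upwards. Without MS_CK replicate 2, c102611_g1 crossed the fold limit (log2 1.06, edgeR adjusted p = 0.00437) and c102611_g2 lost the looser threshold (log2 1.06, adjusted p = 0.124), as c102611_g2 also did without LS_CK replicate 2 (log2 0.9, adjusted p = 0.18). c93030_g1 differed by -0.07 (SE 0.17, interval -0.44 to 0.3, edgeR adjusted p = 0.806). Unadjusted p was under 0.05 in 2 of 3 and in 41.6% of all unigenes, and DESeq2 and limma called 0.

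Between HS_CK and MS_CK no member passed a threshold in the fit of all 12 libraries. The log2 fold change in HS_CK was 0.1 for c102611_g1 (interval -0.25 to 0.46, edgeR adjusted p = 0.701), 0.72 for c102611_g2 (interval -0.01 to 1.45, edgeR adjusted p = 0.138) and 0.41 for c93030_g1 (interval 0.04 to 0.78, edgeR adjusted p = 0.0977). Thus 0 of 3 were called by edgeR, DESeq2 and limma, 1 of 3 had an unadjusted p under 0.05 (37.5% of all unigenes), and 11.4% of all unigenes were called by edgeR.

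After ethephon no member passed either threshold between clones in the fit of all 12 libraries. For c102611_g1 the log2 difference was -0.11 for HS_T over MS_T (interval -0.47 to 0.24, edgeR adjusted p = 0.649), 0.15 for HS_T over LS_T (interval -0.21 to 0.51, adjusted p = 0.517) and 0.26 for MS_T over LS_T (interval -0.09 to 0.62, adjusted p = 0.254). For c102611_g2 the same differences were 0.33 (interval -0.4 to 1.05, edgeR adjusted p = 0.493), 0.59 (interval -0.15 to 1.32, adjusted p = 0.203) and 0.26 (interval -0.47 to 0.99, adjusted p = 0.61). For c93030_g1 they were 0.37 (interval 0 to 0.74, edgeR adjusted p = 0.124), -0.04 (interval -0.41 to 0.33, adjusted p = 0.886) and -0.41 (interval -0.78 to -0.04, adjusted p = 0.0869). By edgeR, DESeq2 and limma 0 of 3 were called in each of these comparisons, where edgeR called 13%, 16.1% and 16% of all unigenes; 0, 0 and 1 of the 3 had an unadjusted p under 0.05, as did 41.4%, 44.1% and 42% of all unigenes. The comparisons under water and after ethephon use different libraries, and whether the LS gap narrowed is the difference of differences given above, which passed no threshold in edgeR with the filter and the looser one for c102611_g1 in DESeq2 (LS minus HS).

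**Figure D2:**
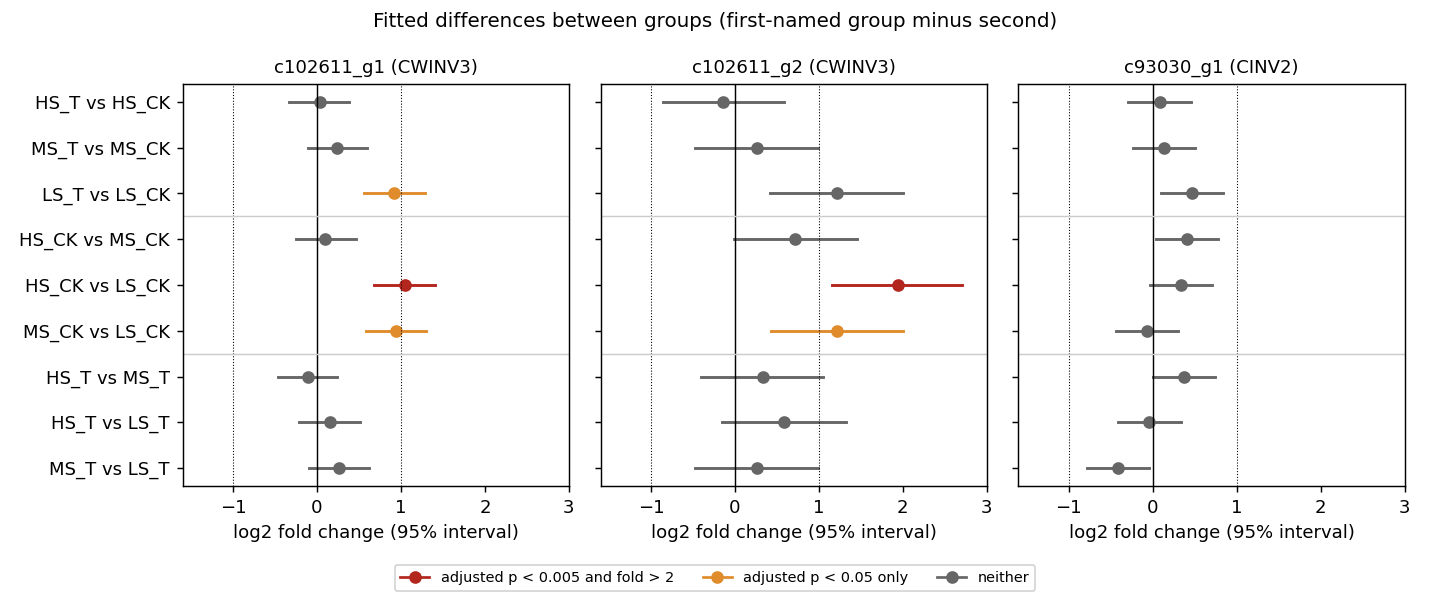
Log2 fold change with its 95% interval (horizontal axis, first-named group over second) for 9 comparisons of the 3 invertase unigenes, from 1 edgeR fit; dotted lines mark a fold change of 2. Only HS_CK vs LS_CK has points past both limits, at 1.05 for c102611_g1 and 1.94 for c102611_g2.

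The unigenes c102611_g1 and c102611_g2 belong to 1 Trinity component, a cluster of contigs that the assembler could not fully separate, and it holds 2 unigenes. Both carry the same annotation, and whether they are pieces or copies of 1 gene was not tested. Counts of members called may thus hold 1 gene more than once. Reads shared between the 2 unigenes may have been divided by the counting, and the level of each would then be uncertain in a way that their sum is not. Whether this happened is not known: their deposited counts are whole numbers, and the study's methods speak of uniquely mapped reads. With counts summed over the component, the total was 1.93-fold higher in LS_T than in LS_CK (log2 0.95, SE 0.17, interval 0.59 to 1.32, edgeR adjusted p = 0.00383), past the looser threshold as were 6.86% of 41208 tested components upwards. The component was 2.25-fold higher in HS_CK than in LS_CK (log2 1.17, SE 0.17, interval 0.81 to 1.54, edgeR adjusted p = 0.000265) and was called, as 5.86% of components were upwards. That call was lost to the fold limit without HS_CK replicate 1 (log2 0.97, edgeR adjusted p = 0.00286) and to the p limit without LS_CK replicate 2 (log2 1.08, adjusted p = 0.00624). The ethephon effect on the component in LS exceeded that in HS by 0.95 (SE 0.23, interval 0.44 to 1.46, edgeR adjusted p = 0.0767); DESeq2 gave 1 (adjusted p = 0.0154), past the looser threshold. Without LS_T replicate 1 the component was called in LS_T vs LS_CK (log2 1.11, edgeR adjusted p = 0.00468). In HS itself the component's log2 fold change after ethephon was 0 (SE 0.16, interval -0.36 to 0.36).

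The component's division between its unigenes varied from library to library. c102611_g2 took 18.2% and 14.4% of the component's counts in HS_T and 19.5% and 15.8% in HS_CK. It took 15.7% and 9.89% in MS_T and 10.5% and 14.5% in MS_CK. In the LS clone it took 10.1% and 14.7% in LS_T and 12.2% and 8.57% in LS_CK. The 95% Wilson intervals, which cover counting error only, were 16.9% to 22.4% for the highest share (HS_CK replicate 1) and 5.96% to 12.2% for the lowest (LS_CK replicate 2). Replicates of a group differed by several percentage points. Both HS_CK libraries lay above all MS and LS libraries, but HS_CK replicate 2 (15.8%) and MS_T replicate 1 (15.7%) were within counting error of each other. Both HS_T libraries lay above both LS_CK libraries. HS_T replicate 2 (14.4%) nevertheless lay below MS_T replicate 1 (15.7%), LS_T replicate 2 (14.7%) and MS_CK replicate 2 (14.5%).

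Set per length within a library, the cytosolic unigene was above both cell wall unigenes in 11 of 12 libraries, the exception being MS_T replicate 2, and c102611_g1 was above c102611_g2 in all 12. The ratio of c93030_g1 FPKM to c102611_g1 FPKM was 1.6 and 1.43 in HS_T and 1.48 and 1.43 in HS_CK. It was 1.24 and 0.913 in MS_T and 1.01 and 1.31 in MS_CK. In the LS clone it was 1.6 and 1.83 in LS_T and 2.21 and 2.47 in LS_CK. LS_CK thus had the largest excess of the cytosolic over the cell wall unigene, above the other 10 libraries, and the MS clone had the smallest.

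**Figure D3:**
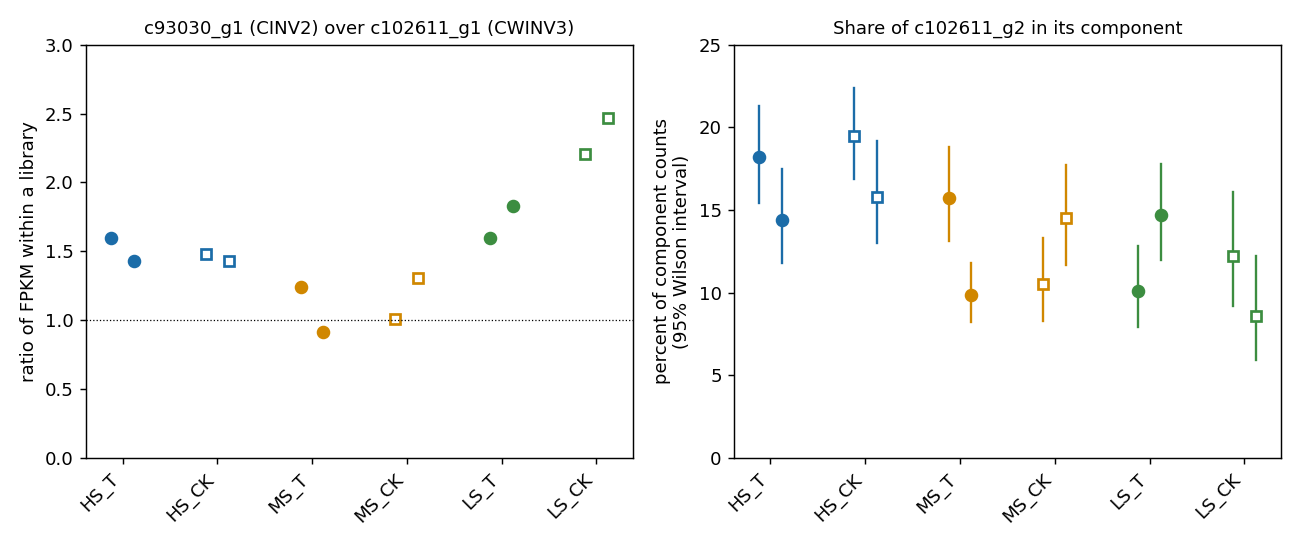
Left, ratio of c93030_g1 FPKM to c102611_g1 FPKM within each library; right, percent of component counts held by c102611_g2 with its 95% Wilson interval, by group (filled after ethephon, open after water). The LS_CK libraries have the highest ratios (2.21 and 2.47) and HS_CK replicate 1 the highest share (19.5%).

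Other sucrose genes give the setting of these values. The study's text names 13 further unigenes of sucrose cleavage or sucrose synthesis, or counted here as ATPases, and all 13 were tested. Since that text chose them with these libraries in view, their directions are not independent evidence. In LS_T vs LS_CK edgeR called 3 of the 13 higher, where it called 2.09% of all unigenes higher, and none of the 13 lower. In HS_CK vs LS_CK it called 2 higher and 1 lower, where it called 6.82% and 9.96% of all unigenes. Their median log2 fold change was 0.6 in LS_T vs LS_CK and 0.17 in HS_CK vs LS_CK, against 0.92 and 1.05 over the 3 invertases and -0.08 and -0.03 over all tested unigenes.

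The 4 unigenes annotated as sucrose alpha-glucosidases (INV), enzymes that also split sucrose, had calls between HS_CK and LS_CK and none after ethephon in LS. In HS_CK vs LS_CK, c91663_g1 was 5.36-fold higher in HS_CK (edgeR adjusted p = 3.73e-06) and c84505_g3 9.76-fold higher (adjusted p = 0.000379), on 56 and 25 counts in HS_CK against 5 and 4 in LS_CK. The call of c84505_g3 was lost without LS_CK replicate 1 (edgeR adjusted p = 0.00513) or LS_CK replicate 2 (0.00744). c99737_g1 was lower in HS_CK, at 0.198 times the LS_CK level (edgeR adjusted p = 2.05e-05). The call of c91663_g1 was lost under limma on log2(FPKM + 0.1) (log2 2.14, adjusted p = 0.0556). That of c99737_g1 was lost under limma on log2(FPKM + 1) (log2 -0.97, adjusted p = 0.00413) and log2(FPKM + 0.1) (log2 -1.36, adjusted p = 0.00564). c93760_g1 was 1.8-fold higher with an edgeR adjusted p of 0.000268. In LS_T vs LS_CK edgeR called 0 of the 4, with log2 fold changes of -0.6 for c91663_g1, 0.04 for c93760_g1, 0.52 for c84505_g3 and 0.6 for c99737_g1. Unadjusted p was under 0.05 in 2 of the 4, and DESeq2 and limma called 0. Their median was 0.28.

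Of the 5 unigenes of sucrose synthesis and sucrose synthase, 1 was called in LS_T vs LS_CK. It was c91176_g1 (SPP2), sucrose phosphatase, which removes the phosphate in the last step of sucrose synthesis. It had FPKM of 18.91 and 19.22 in LS_T, against 6.89 and 6.49 in LS_CK, a log2 fold change of 1.51 (SE 0.21, edgeR adjusted p = 0.000761). Its call was lost without LS_CK replicate 1 (edgeR adjusted p = 0.0136), LS_CK replicate 2 (0.0167) or LS_T replicate 2 (0.00566), at log2 values of 1.46 to 1.57 over the libraries left out. For c96004_g2 (SUS4), a sucrose synthase, which makes or splits sucrose reversibly, the log2 value was 0.87 (edgeR adjusted p = 0.0195), past the looser threshold. The sucrose phosphate synthases c72504_g1 and c72030_g1 (SPS1F), which form sucrose phosphate, had 0.34 and 0.32, and the sucrose synthase c83314_g1 (SUS3) had 0.3. The median of the 5 was 0.34. In HS_CK vs LS_CK 0 of the 5 were called by edgeR, DESeq2 and limma, and 1 had an unadjusted p under 0.05, c91176_g1 at -0.89 (edgeR adjusted p = 0.00681).

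The 4 unigenes annotated ATPase2, ATPase, AATP1 and ACA2, counted here as ATPases, all had a higher FPKM in both LS_T libraries than in both LS_CK libraries, as 18.9% of all tested unigenes had. c87964_g1 (ACA2, in Arabidopsis a calcium pump) had 127.4 and 93.43 FPKM in LS_T, against 14.37 and 13.27 in LS_CK, with a log2 fold change of 3.09 (SE 0.21, edgeR adjusted p = 6.92e-06). c79387_g1 (ATPase) was also called, at 2.91 (SE 0.39, edgeR adjusted p = 0.000658), and lost the call without LS_CK replicate 1 (2.55, adjusted p = 0.0118) or LS_T replicate 2 (2.71, adjusted p = 0.00706). c87456_g3 (AATP1) had 528 and 340 counts in LS_T, against 4 and 39 in LS_CK, and passed the looser threshold (edgeR adjusted p = 0.0186). It was called by DESeq2 (log2 4.51, adjusted p = 3.66e-08), by limma on log2(FPKM + 1) (3.82, adjusted p = 0.00214) and by edgeR without robust estimation (4.44, adjusted p = 0.00334), and lost the looser threshold without LS_T replicate 1 (edgeR adjusted p = 0.0553) or LS_T replicate 2 (0.0676). c101111_g2 (ATPase2) had 15 and 15 counts in LS_T, against 0 and 3 in LS_CK (edgeR adjusted p = 0.0137), too few in LS_CK for a fold change to be given. The median of the 4 fitted log2 values was 3.22, a figure that depends in part on c101111_g2.

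In the HS clone the median log2 fold change of the 13 after ethephon was 0.33, with 5 at an unadjusted edgeR p under 0.05 (3.97% of all tested unigenes) and 0 past the looser threshold. In the MS clone it was 0.68, with 6 at an unadjusted p under 0.05 (12.2% of all tested unigenes) and 1 past the looser threshold, and the median over all tested unigenes was 0 in both. For the 4 ATPase unigenes alone the median was 1.43 in HS, with 4 at an unadjusted edgeR p under 0.05. It was 1.39 in MS, with 2. A rise of these 4 was thus not seen in LS alone. Only c87964_g1 was called for LS minus HS (log2 2.49) and for LS minus MS (2.27). The ERF unigene c81582_g1, an ethylene response factor looked at as a check of the treatment, had FPKM of 3.88 and 3.06 in LS_T, against 4.88 and 5.32 in LS_CK. Its log2 fold change was -0.47 in LS (edgeR adjusted p = 0.242), 0.14 in MS (adjusted p = 0.868) and -0.42 in HS (adjusted p = 1). In these libraries this unigene thus did not mark the treatment. By qRT-PCR, in contrast, the paper reports that its transcript rose after ethylene in every genotype. Why the methods differ was not tested.

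**Figure D4:**
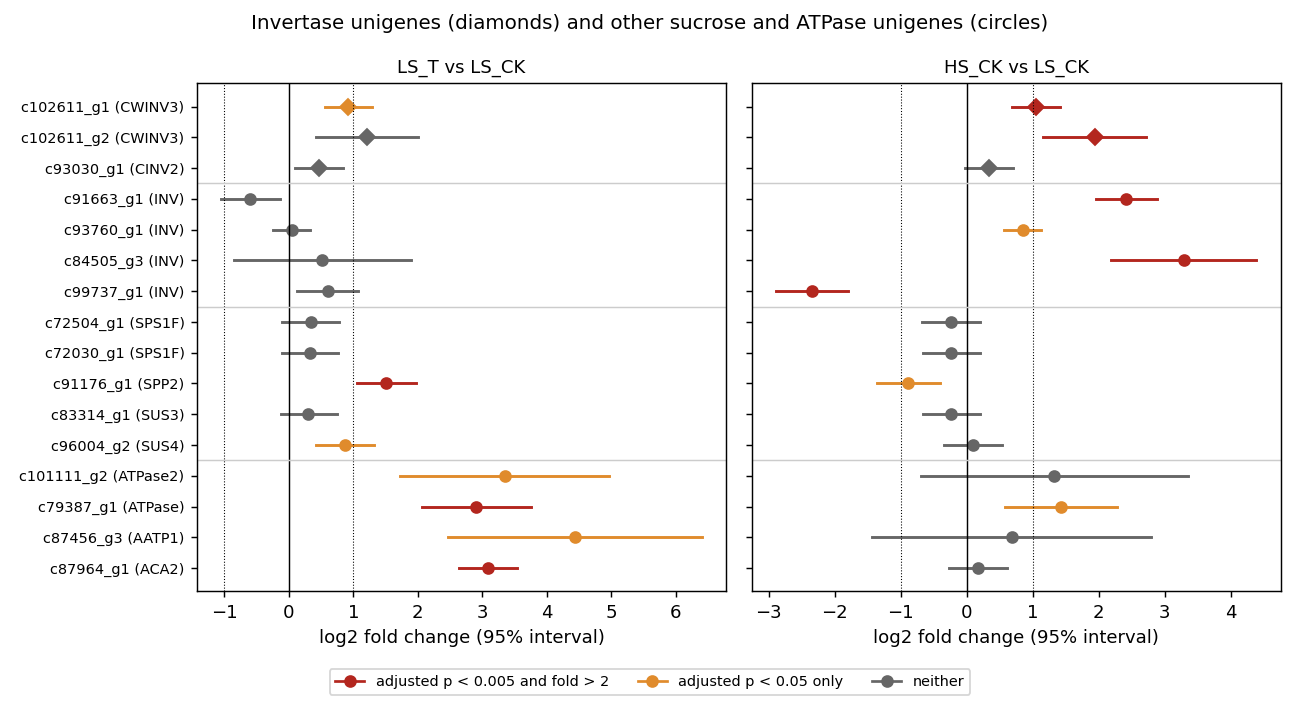
Log2 fold change with its 95% interval (horizontal axis) for the 3 invertases (diamonds) and 13 other unigenes (circles), after ethephon in LS (left) and between clones under water (right); dotted lines mark a fold change of 2. The CWINV3 unigenes lie past both limits on the right (1.05 and 1.94), while on the left the points past both limits are c91176_g1, c79387_g1 and c87964_g1; the c101111_g2 value rests on 3 counts in LS_CK.

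The unigenes whose profile was most like that of an invertase were found by the root mean square difference of log2(FPKM + 1), each unigene centred on its own mean, over 12 libraries and 42649 other unigenes. For c102611_g1 the nearest were c102689_g1 (0.129), c93409_g1 (0.132) and c90779_g1 (0.144), whose mean FPKM in LS_T and LS_CK were 4.04 and 1.91, 2.03 and 0.91, and 39.8 and 22.3. For c102611_g2 they were c96492_g1 (0.2), c103672_g1 (0.223) and c74249_g3 (0.233), and for c93030_g1 they were c96267_g3 (0.0579), c88217_g1 (0.0603) and c94617_g1 (0.0708). The members of the CWINV3 component were farther from each other, at 0.362, where c102611_g2 came at place 4658 in the list of c102611_g1 and c102611_g1 at place 179 in the list of c102611_g2. These distances are a description over libraries that share clone and treatment, and a profile that varies little, as that of c93030_g1 (SD 0.215 on the log2 scale, against 0.343 and 0.556 for c102611_g1 and c102611_g2), has near neighbours more easily.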

How the data were processed

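Total RNA from 12 stalk samples was sequenced as poly(A) libraries. The authors trimmed the reads, assembled them with Trinity without a genome, kept 1 unigene (the longest transcript) per subcomponent and aligned the reads to the unigenes with RSEM (version not given in the sources used here). They deposited, for each library, an expected count per unigene, not scaled between libraries, and an FPKM. Technical replicates (2 or 3 by source) came merged. Because RSEM can divide reads shared by similar unigenes, c102611_g1 and c102611_g2 were also summed.

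The deposited expected counts were rounded and fitted with edgeR 4.0.16 in R 4.3.3 (filterByExpr, minimum count 10; TMM factors 0.919 to 1.09; glmQLFit with robust estimation; 1 coefficient for each of 6 groups, 6 residual degrees of freedom). Contrasts compared T with CK in each clone, clones under each spray, the mean effect and differences of effects. p-values were adjusted by Benjamini-Hochberg over all 54433 tested unigenes. The SE is the log2 fold change divided by the square root of F. Each contrast was weighed against the spread between biological replicates, estimated over all 6 groups together and drawn towards that of other unigenes. It is thus not the spread of the 2 replicates of the compared groups alone. Tests were tried on simulated data first.

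Alternatives were DESeq2 1.42.0 (size factors; Wald test), limma 3.58.1 on log2(FPKM + 1) and log2(FPKM + 0.1), every unigene with at least 1 count, a looser threshold, only the libraries compared, a replicate block, each library left out and, chosen after seeing the data, no robust estimation. Figures used Python 3.11.15 and matplotlib 3.10.9. Named were the invertases, the sucrose and ATPase unigenes and the ERF unigene in the study's text, and the 3 most alike unigenes with mean FPKM of at least 1. Members and lists were chosen with earlier results of these data known. The authors' sucrose, qRT-PCR and DEGseq results, the assembly and its annotation were not used in the tests here. The direction of the qRT-PCR result for c81582_g1 is cited from the paper.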

Additional observations from a re-analysis of the deposited data

How the results depend on the processing

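In HS_CK vs LS_CK, under limma c102611_g1 had 0.76 (log2(FPKM + 1), adjusted p = 0.00977) and 0.82 (log2(FPKM + 0.1), adjusted p = 0.00954), past the looser threshold only, and 1 of 3 members was called. In a fit of only the libraries compared c102611_g2 had 1.96 (edgeR adjusted p = 0.00609), with 1 of 3 called. With every unigene of at least 1 count, MS_CK vs LS_CK had c102611_g2 at 1.27 (edgeR adjusted p = 0.000377), with 1 of 3 called, and the component at 1.01 (5.76e-07); LS_T vs LS_CK had c102611_g1 at 1.01, c102611_g2 at 1.3 (2 of 3 called) and the component at 1.03 (8.05e-07); and the component's effect in LS minus HS was 1.03 (0.00399). The cause was not tested. The looser threshold took in, at their own values, c102611_g1 (0.92) and the component (0.95) in LS_T vs LS_CK (1 of 3 members), c102611_g1 (0.94), c102611_g2 (1.21) and the component (0.97) in MS_CK vs LS_CK (2 of 3), and c102611_g1 (0.4) and the component (0.4) for the mean effect (1 of 3). Taken from FPKM, the share of c102611_g2 averaged 43.2% in HS_T, 45.8% in HS_CK, 35.7% in MS_T, 35.6% in MS_CK, 35% in LS_T and 30.8% in LS_CK, since FPKM divides by the shorter length.

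With 1 library left out, members called ranged from 0 to 2 in HS_CK vs LS_CK and from 0 to 1 in MS_CK vs LS_CK. In HS_CK vs LS_CK the log2 values ranged from 0.89 to 1.2 for c102611_g1, from 1.56 to 2.33 for c102611_g2 and from 0.97 to 1.35 for the component. c102611_g1 in MS_CK vs LS_CK ranged from 0.87 to 1.06, and in LS_T vs LS_CK c102611_g2 ranged from 0.74 to 1.61, c93030_g1 from 0.25 to 0.67 and the component from 0.79 to 1.11. For LS minus HS c102611_g1 ranged from 0.73 to 1.04 and c102611_g2 from 0.87 to 1.75. c93030_g1 ranged from 0.21 to 0.58 in HS_CK vs MS_CK and from -0.6 to -0.18 in MS_T vs LS_T. Values near 0 changed sign: in HS_T vs HS_CK c102611_g1 ranged from -0.11 to 0.19, c102611_g2 from -0.43 to 0.24 and c93030_g1 from -0.08 to 0.28; in HS_CK vs MS_CK c102611_g1 from -0.06 to 0.25 and the component from -0.01 to 0.37; in HS_T vs MS_T c102611_g1 from -0.23 to 0.04 and the component from -0.14 to 0.05; c93030_g1 from -0.14 to 0.06 in MS_CK vs LS_CK, from -0.24 to 0.19 in HS_T vs LS_T and from -0.21 to 0.15 for HS minus MS; and c102611_g2 from -0.11 to 0.74 in MS_T vs LS_T. Where a group had 1 library left, it was assumed to vary like the others.

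Among the other unigenes, limma gave c93760_g1 -0.04 and -0.05 in LS_T vs LS_CK, and c96004_g2 -0.19 and -0.19 and c87964_g1 -0.02 and -0.02 in HS_CK vs LS_CK, against small positive values in edgeR. With 1 library left out, c93760_g1 ranged from -0.02 to 0.12 in LS_T vs LS_CK, and in HS_CK vs LS_CK c83314_g1 ranged from -0.47 to 0.06, c96004_g2 from -0.09 to 0.27 and c87456_g3 from -0.16 to 3.04. In LS_T vs LS_CK limma on log2(FPKM + 1) did not call c91176_g1 (1.38, adjusted p = 0.00887) or c79387_g1 (1.94, adjusted p = 0.0813).

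The count of unigenes called was 1379 in LS_T vs LS_CK (331 to 5349 over the alternatives), 9137 in HS_CK vs LS_CK (4737 to 19418), 8095 in MS_CK vs LS_CK (4053 to 17215), 5 in HS_T vs HS_CK (2 to 275) and 35 in MS_T vs MS_CK (0 to 1085).

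Replicate numbers were not treated as pairs in the main fit. Over 15 pairs of groups the correlation of deviations ran from -0.17 to 0.38 and exceeded 0.1 in 3. Those were HS_T with HS_CK (0.24), HS_T with MS_CK (0.28) and HS_CK with MS_CK (0.38). Why these groups shared part of their replicate difference was not tested. With a replicate block c102611_g1 had 0.92 in LS_T vs LS_CK (edgeR adjusted p = 0.00718) and 1.05 in HS_CK vs LS_CK (0.000807), and the members called were the same in number in all 13 contrasts. limma was not run on component totals, and the mean effect, which uses all 12 libraries, has no fit of only the libraries compared. Of the 3 invertases c102611_g2 had the fewest counts, with 27 in its lowest library.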
